A study of Mus musculus with 10 samples.

Results

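MiR-155 is a microRNA made from a single hairpin, and both of its arms were counted here: the 5p arm, mmu-miR-155-5p, and the 3p arm, mmu-miR-155-3p. They were taken by name from a table of small RNA read counts, and are 2 of its 1302 mature microRNAs and of its 6968 features. The table holds 10 libraries of CD43- splenic B-cells from mice on a 129 background. The wt mice and the mice lacking the 3'RR (the regulatory region at the 3' end of the immunoglobulin heavy chain locus) had 2 libraries each without and 2 with lipopolysaccharide (LPS), a bacterial product that activates B-cells. Mice lacking Eµ (the intronic enhancer of the same locus) had 1 library per condition. The study names the latter line EµMAR-deficient and describes its mice as adults of both sexes. Each library pooled cells of 2 mice, and both deletions were compared with the same wt libraries. Per the labels, cells were cultured for 2 days alone (non-stimulated, NS) or with LPS, given as 5 µg/ml in the sample characteristics and with another unit elsewhere in the labels. The study's methods for long RNA name cells taken before stimulation, and if that held here the LPS comparison would also contain the effect of culture.

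A microRNA hairpin is cut by Drosha and then Dicer into a short duplex. One strand of it is usually loaded into an Argonaute protein and kept, and the other is mostly degraded. The loaded strand finds messenger RNAs through its seed, bases 2 to 8, and lowers their translation and stability. MiR-155 comes from the non-coding transcript Mir155hg, is known to be induced by antigen receptor and Toll-like receptor signals, and is needed for normal germinal centre and antibody responses. Its 5p arm is the strand usually kept.

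The mature arms are shown with their seeds in capitals, because the comparison of the arms is a comparison of these strands. Sequences are from RefSeq (GRCm38.p6).
mmu-miR-155-5p: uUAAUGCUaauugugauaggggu
mmu-miR-155-3p: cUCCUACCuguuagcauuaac
The 5p arm is 23 nt long with 34.8% G or C, and the 3p arm is 21 nt long with 42.9%. The seeds differ, and 0 other mature microRNAs of the RefSeq table share either of them. Both arms lie on the plus strand of chromosome 16 (GRCm38), the 5p arm at 84714143 to 84714165 and the 3p arm at 84714182 to 84714202, in exon 2 (84714053 to 84715245) of the lincRNA gene Mir155hg. The hairpin annotated there is shown with both arms in capitals.
Mir155 hairpin: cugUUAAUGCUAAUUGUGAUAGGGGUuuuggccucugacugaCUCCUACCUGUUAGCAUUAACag
It runs from 84714140 to 84714204 and is 65 nt long. Its predicted fold has 25 base pairs and a free energy of -27.2 kcal/mol, and 19 of these pairs join the arms.

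The 5p seed pairs with the DNA letters AGCATTA, and 8.27% of 20984 annotated 3' untranslated regions hold this match on the transcript strand. A stricter match, AGCATTAA, was in 2.99%. The 30-base windows around that match are shown for 3 known miR-155 targets in immune cells, with the match in capitals, since they are what the 5p seed reads.
Spi1: ccgccggccatAGCATTAAcccgtcgcccg
Inpp5d: tgtttttaaaaAGCATTAAagaaaaccatc
Socs1: cgctgtgccgcAGCATTAAgtgggggcgcc
Spi1 encodes the transcription factor PU.1, Inpp5d the phosphatase SHIP1 and Socs1 an inhibitor of cytokine signalling. The Spi1 window is on chromosome 2 at 91115426 to 91115455 (plus strand). The Inpp5d window is on chromosome 1 at 87719827 to 87719856 (plus strand), and the Socs1 window is on chromosome 16 at 10784195 to 10784224 (minus strand). A match is a description of the sequence, and the messenger RNAs were not measured here.

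Library totals ranged from 3482540.0 to 18144016 counts, of which 51.4% to 82.1% were in the microRNA class. The second NS libraries of wt and 3'RR-deficient cells were the 2 shallowest and departed from the first ones alike in each genotype (r = 0.666 between the replicate differences of 720 features, which are not independent). Levels are given as CPM, reads scaled to a common total of the microRNA class by the TMM method, and as reads for the ratio of the arms. Each read counts once whatever its length. The kit may capture some sequences better than others, and amplified reads need not stem from separate molecules. A ratio of the arms is thus a ratio of reads. B-cell identity could not be checked with microRNAs: miR-150-5p is shared by lymphocytes and miR-142a-3p by blood cells in general, and their summed level was at least 12120.0 CPM in every library. No source ties each pool to its own culture day, and p-values measure the spread between these pools.

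MiR-155-5p was abundant in NS cells and several-fold higher with LPS in all 3 genotypes, and miR-155-3p was a rare strand that was higher by a larger factor. The 5p arm was at 6224 and 7374 CPM in the wt NS libraries, at 6977 and 6216 CPM in the 3'RR-deficient ones and at 8083 CPM in the Eµ-deficient one. With LPS it was at 27430.0 and 64750.0 CPM in wt, at 49070.0 and 43350.0 CPM in 3'RR-deficient cells and at 100700.0 CPM in Eµ-deficient cells. All 5 LPS libraries thus lay above all 5 NS libraries, and so did they for 11.2% of the 988 features tested. The wt LPS libraries differed from each other by 2.36-fold, more than any other pair of replicates for this arm. With total count scaling the widest pair was that of wt NS (2.22-fold, against 1.62-fold in wt LPS).

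The order of the mean 5p levels was 3'RR-deficient NS (6596 CPM ± 538.1, SD, n = 2), wt NS (6799 ± 813.2, SD, n = 2), Eµ-deficient NS, wt LPS (46090.0 ± 26390.0, SD, n = 2), 3'RR-deficient LPS (46210.0 ± 4045, SD, n = 2) and Eµ-deficient LPS. The wt and 3'RR-deficient groups overlapped in each condition. The Eµ-deficient libraries, 1 per condition, lay above the libraries of both other genotypes in each condition, an order whose share over all features was not counted. With total count scaling that order held with LPS but not without, where wt NS replicate 2 was at 9949 and the Eµ-deficient library at 9597 CPM, and the wt LPS mean (41610.0) was above the 3'RR-deficient one (40920.0). As a share of all microRNA counts, the 5p arm took 0.448% to 0.995% in NS libraries. With LPS it took 3.04% to 5.15% in wt and 3'RR-deficient cells, and 12.3% (Wilson 95% confidence interval 12.32 to 12.36) in Eµ-deficient cells. It ranked between 21 and 34 among mature microRNAs without LPS and between 2 and 8 with LPS.

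The 3p arm was at 11.0 and 5.33 CPM in wt NS libraries, at 9.78 and 4.14 CPM in 3'RR-deficient ones and at 7.98 CPM in the Eµ-deficient one. These levels rest on 98, 16, 74, 14 and 77 reads in that order. With LPS the arm was at 425.5 and 570.2 CPM in wt, at 206.4 and 331.1 CPM in 3'RR-deficient cells and at 245.5 CPM in Eµ-deficient cells, from at least 933 reads per library. Here too all LPS libraries lay above all NS libraries, and the order with LPS was not that of the 5p arm: both wt libraries were above the 3 others. Its rank moved from between 306 and 380 to between 94 and 122.

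**Figure D1:**
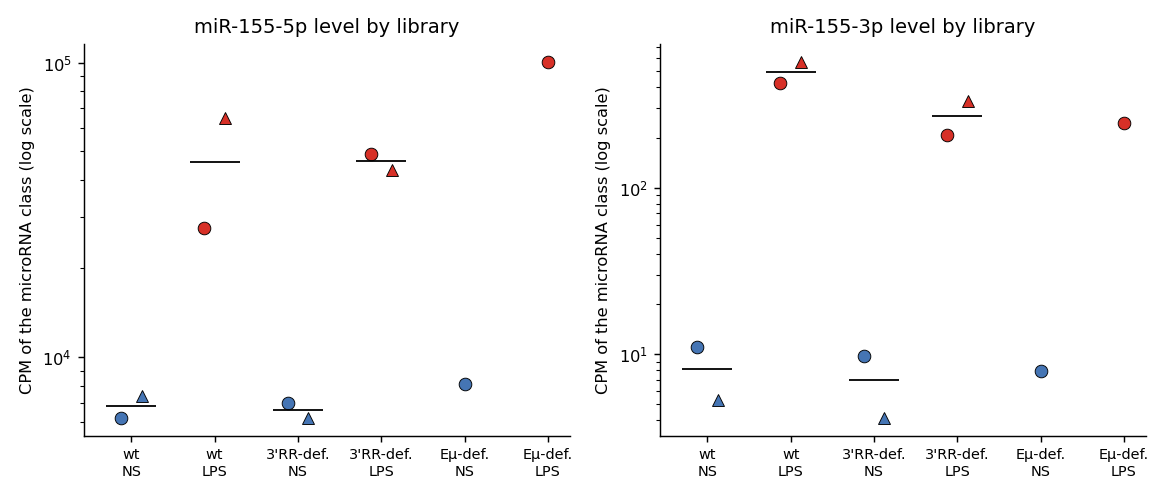
Level of each arm (CPM of the microRNA class, log axis) in the 10 libraries by genotype and condition; blue points are NS and red points LPS libraries, circles replicate 1, triangles replicate 2, and lines the group mean where n = 2. For the 5p arm the NS libraries sit between 6216 and 8083 and the LPS libraries between 27430.0 and 100700.0; for the 3p arm the ranges are 4.14 to 11.0 and 206.4 to 570.2.

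The LPS response was compared within and across genotypes. The ratio of the mean 5p levels was 6.78 in wt, 7.01 in 3'RR-deficient and 12.5 in Eµ-deficient cells, and the ratio of the mean 3p levels was 61.0, 38.6 and 30.8. With edgeR's quasi-likelihood test and the adjustment over all features, the log2 fold change of the 5p arm in wt was 2.75 (SE 0.73, adjusted p 0.0833). Without the 3'RR it was 2.77 (SE 0.73, edgeR adjusted p 0.111), and it passed the threshold of 0.05 in neither. A replicate block fitted separately in NS and LPS cells brought it past the threshold in each, at 2.72 and 2.79 (edgeR adjusted p 0.00025 and 0.000227). That setting called 182 of 720 features in wt and 183 in 3'RR-deficient cells. It treats the replicate number as a batch, which no source states. A GC correction removed a trend on GC content from each library, in place of the TMM scaling, and kept only the 497 features with a RefSeq sequence. With it the 5p changes were 1.01 in wt (edgeR adjusted p 0.491) and 1.36 without the 3'RR (adjusted p 0.389). The 3p arm passed in both, at 5.97 in wt (SE 0.82, edgeR adjusted p 0.00999) and at 5.16 without the 3'RR (SE 0.79, edgeR adjusted p 0.024). It was thus 1 of 5 features called in wt, which are 0.694% of 720, and 1 of 7 called in 3'RR-deficient cells, 0.972%. All of these were higher with LPS. Its call was lost in wt without wt NS replicate 2 (5.55, edgeR adjusted p 0.0655) or wt LPS replicate 1 (6.09, adjusted p 0.0805), and in 3'RR-deficient cells without their NS replicate 2 (4.56, adjusted p 0.0948) or wt LPS replicate 1 (5.13, adjusted p 0.0524).

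Over wt and 3'RR-deficient cells together, 4 libraries against 4, both arms passed. The 5p arm was higher by 2.76 on the log2 scale (SE 0.44, edgeR adjusted p 0.00261) and the 3p arm by 5.56 (SE 0.54, edgeR adjusted p 0.000184), with the smallest p of all 720 features. The background of this comparison is 21.8% of features called in either direction and 13.2% higher with LPS. With the same GC correction the 5p change was 1.19 (SE 0.60, edgeR adjusted p 0.153) and no longer passed, and the 3p change was 5.29 (adjusted p 2.63e-06). This setting called 140 of 497 features. With a replicate block within culture condition added to the correction, the 5p change was 1.67 (SE 0.28, edgeR adjusted p 2.34e-08) and passed. That setting called 221 of 497 features. The 5p arm is poor in G and C, and between replicates of NS cells the counts shifted with GC content by 1.05 (wt) and 0.86 (3'RR-deficient) on the log2 scale per 10% GC, against -0.24 and -0.18 with LPS. In the second NS library against the first, the 5p arm itself was at 0.45 (wt) and -0.22 (3'RR-deficient), and the 3p arm at -0.80 and -1.22. These are differences of log2 CPM of the 8 libraries scaled without the Eµ-deficient ones (prior count 2), as for the slopes. The part of GC content in the 5p result was not tested further. Without the second NS libraries the changes were 2.72 and 5.02, and both passed.

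With all 10 libraries the LPS term was 2.95 (SE 0.42, edgeR adjusted p 0.000413) for the 5p arm and 5.45 (SE 0.48, edgeR adjusted p 8.71e-06) for the 3p arm, again the smallest p, now of 988 features. In this fit 18.8% of features were called and 11.8% were called higher. Both arms kept their calls when any 1 of the 10 libraries was left out. With the GC correction the 5p change was smaller, 1.87 (edgeR adjusted p 0.0107), and still passed.

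**Figure D2:**
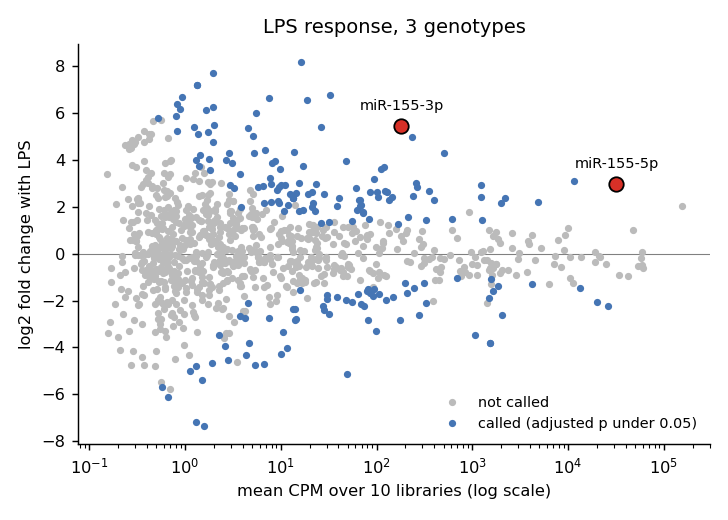
Log2 fold change with LPS (fit of all 10 libraries, y axis) against the mean level over the libraries (CPM, log x axis) for the 988 features tested, with called features in blue and both miR-155 arms in red. The 3p arm lies at 5.45 and the 5p arm at 2.95, at a far higher level.

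The row of the Mir155 hairpin itself is separate in the table and went the same way. It had 6, 1, 3, 3 and 52 reads in the NS libraries (wt, 3'RR-deficient, Eµ-deficient) and 141, 74, 50, 60 and 788 in the LPS libraries in the same order. No fold or test of this response is given, because 3 of the NS libraries had 3 reads or fewer and the row met the filter on low counts through libraries where it is high. The Eµ-deficient libraries were highest within each condition, at 5.39 CPM against 0.333 to 0.888 without LPS and at 68.97 CPM against 8.13 to 29.4 with LPS. There was 1 such library per condition, and the share of all features in this order was not counted.

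Markers of other cells were also measured. Over wt and 3'RR-deficient cells, 2 of 2 myeloid, 1 of 3 erythroid (miR-486a-5p) and 2 of 2 stromal markers fell with LPS, and 0 of 2 endothelial and platelet markers were called in either direction (edgeR, against 21.8% of all features). The summed level of the 2 myeloid markers (miR-223-3p and miR-223-5p) was 478.9 to 5032 CPM in NS and 82.4 to 512.3 CPM in LPS libraries, and that of the 3 erythroid markers (miR-451a, miR-144-3p and miR-486a-5p) 2500.0 to 7919 and 138.1 to 3570.0 CPM. The 2 stromal markers (miR-143-3p and miR-145a-5p) summed to 153.1 to 912.4 and 15.8 to 827.4 CPM, the 2 endothelial and platelet markers (miR-126a-3p and miR-126a-5p) to 25.3 to 141.0 and 20.8 to 78.6 CPM, and miR-150-5p and miR-142a-3p to 24350.0 to 56600.0 and 12120.0 to 20200.0 CPM. None of these markers was at 0 in all libraries, their part in the response of miR-155 was not tested, and in pooled cells a change in the mix and a change per cell cannot be told apart.

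The ratio of the arms was compared next, since it needs no scaling between libraries. The 5p arm outnumbered the 3p arm in every library, and by less with LPS. There were 566 and 1384 5p reads per 3p read in wt NS libraries, 714 and 1500.0 in 3'RR-deficient and 1013 in Eµ-deficient NS libraries. With LPS there were 64.5 and 113.6 in wt, 237.8 and 130.9 in 3'RR-deficient and 410.4 in Eµ-deficient cells. Every LPS ratio was below every NS ratio, which held for 5 of 136 hairpins with at least 100 reads from each arm (3.68%). The opposite order held for 3 of them (2.21%).

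Put as a share, the 3p arm made up 0.0666% to 0.176% of the miR-155 reads without LPS. In the wt NS libraries the share was 0.176% (Wilson 95% interval 0.145 to 0.215) and 0.0722% (0.0445 to 0.117), and in the 3'RR-deficient ones 0.14% (0.112 to 0.176) and 0.0666% (0.0397 to 0.112). The intervals of the replicates did not overlap in wt and met only at their ends in 3'RR-deficient cells, intervals that cover the error of counting alone. With LPS the share was 1.53% and 0.873% in wt, 0.419% and 0.758% in 3'RR-deficient and 0.243% in Eµ-deficient cells.

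**Figure D3:**
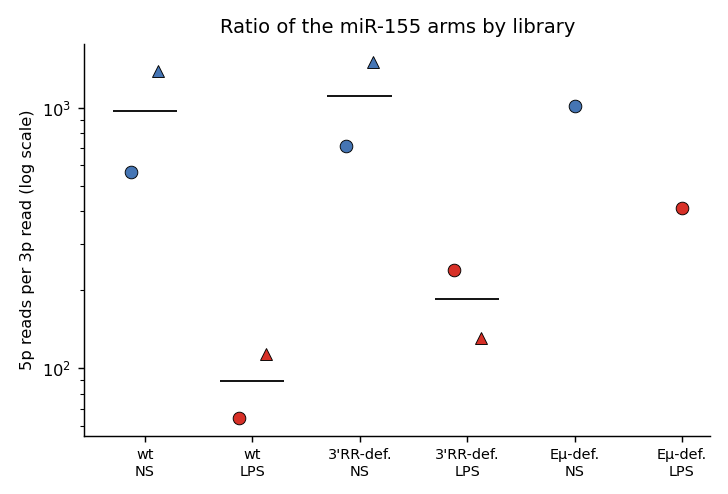
Reads of miR-155-5p per read of miR-155-3p (log axis) in the 10 libraries; colours, symbols and lines as for the levels. The NS libraries sit between 566 and 1500.0 and the LPS libraries between 64.5 and 410.4, with no overlap.

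In a fit of both arms of all 136 hairpins, log2(5p/3p) of miR-155 fell by 2.58 with LPS (SE 0.49, edgeR adjusted p 0.0285). It had the smallest p of the 136 hairpins, of which 1.47% were called, and the median shift over all of them was 0.12. In the exact two-sided permutation test within genotype, the difference of the means was -2.63 (p 0.0278, the smallest that 72 arrangements can give). The call of the fit was lost without any 1 of the wt and 3'RR-deficient LPS libraries, with an edgeR adjusted p of 0.117 and 0.122 without wt LPS replicates 1 and 2, and 0.06 and 0.129 without the 3'RR-deficient ones. The shift itself stayed between -2.92 and -2.29 when each library was left out. Without the second NS libraries, where the 3p arm rests on 16 and 14 reads, it was -2.08 (edgeR adjusted p 0.00155).

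With wt and 3'RR-deficient libraries alone the shift was -2.92 (SE 0.53, edgeR adjusted p 0.0393), and miR-155 was the only call among 118 hairpins (0.847%). Under alternatives between 0 and 50 hairpins were called. The smallest exact permutation p of this smaller design is 0.0556, which it gave. This call was lost without any 1 of the 4 LPS libraries or of the second NS libraries, with adjusted p-values of 0.0687 to 0.208 (edgeR).

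The other hairpin called with all genotypes was miR-146a, a microRNA known to be induced by NF-κB that dampens Toll-like receptor signalling. Its 3p arm had 38, 0, 31, 0 and 20 reads in the NS libraries (wt, 3'RR-deficient, Eµ-deficient) and 172, 312, 75, 334 and 153 in the LPS libraries, beside 35007 to 522136 reads of its 5p arm. The fitted shift was -3.06 (edgeR adjusted p 0.0433). It depends on how the libraries at 0 are treated, and the 3p arm reached the minimum of 100 reads only through the LPS libraries, so it is a description. Its arms are shown beside those of miR-155, seeds in capitals.
mmu-miR-146a-5p: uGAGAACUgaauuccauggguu
mmu-miR-146a-3p: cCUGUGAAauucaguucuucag
The next hairpin by p was miR-17, with a shift of 2.24 towards the 5p arm (edgeR adjusted p 0.0796).

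**Figure D4:**
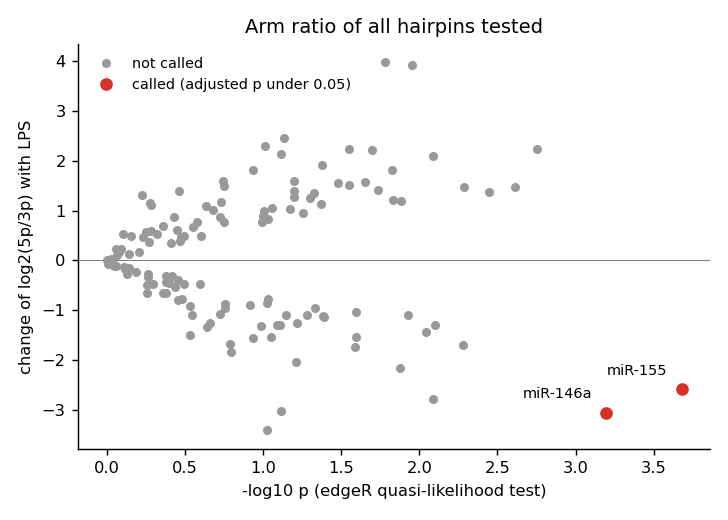
Change of log2(5p/3p) with LPS (y axis) against -log10 p of edgeR's quasi-likelihood test (x axis) for the 136 hairpins. The 2 called hairpins, miR-155 at -2.58 and miR-146a at -3.06, are in red; the latter rests on NS libraries with 0 to 38 reads of its 3p arm.

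Whether deletion of an enhancer of the heavy chain locus changed miR-155 was asked next. Between 3'RR-deficient and wt cells neither arm passed the test. With LPS both 3'RR-deficient libraries lay below both wt libraries for the 3p arm, also with total count scaling (224.2 CPM ± 11.2 against 472.9 ± 27.9, SD, n = 2 each). The share of all features in this order was not counted, so it is a description of these libraries. For the 5p arm the log2 difference was 0.05 (95% interval -1.47 to 1.57, edgeR adjusted p 1) without LPS, 0.07 (-1.45 to 1.59, adjusted p 1) with LPS and 0.06 (-0.85 to 0.97, adjusted p 0.997) over both conditions, and its sign changed with the scaling. For the 3p arm it was -0.08 (-1.60 to 1.43, edgeR adjusted p 1), -0.90 (-2.38 to 0.59, adjusted p 1) and -0.50 (-1.49 to 0.48, adjusted p 0.997). Of these intervals, only that of the 5p arm over both conditions, 4 libraries against 4, stayed within 2-fold (log2 of 1) either way.

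The comparisons of 3'RR-deficient with wt cells called 0% of 720 features without LPS (9 with an unadjusted p under 0.05, 1 called by DESeq2), 0% with LPS (15 and 2) and 0.139% over both conditions. With the GC correction and a replicate block within culture condition, 8 features were called with LPS and 8 over both conditions. Set against the same-numbered wt library, the 5p arm of 3'RR-deficient cells differed by 0.16 and -0.25 without LPS, and by 0.84 and -0.58 with LPS, in opposite directions in each condition. For the 3p arm these differences were -0.17 and -0.36 without LPS, where the groups overlapped. With LPS they were -1.04 and -0.78, which restates the order given above. The pairs rest on replicate numbers that no source ties to a shared batch, and the share of features lower in all pairs was not counted. The LPS responses of the genotypes differed by 0.02 (SE 0.96) for the 5p arm and -0.81 (SE 0.95) for the 3p arm (both edgeR adjusted p 1.00), in a test that called 0% of features (5 with an unadjusted p under 0.05 and 0 called by DESeq2).

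Eµ-deficient cells had 1 library per condition and were compared with wt over both conditions. The 5p arm was at 0.73 above wt on the log2 scale (95% interval -0.38 to 1.83, edgeR adjusted p 0.627) and the 3p arm at -0.54 (-1.75 to 0.66, edgeR adjusted p 0.765), and 1.62% of features were called. In the same comparison the myeloid markers miR-223-3p and miR-223-5p were at 2.12 and 1.43, the erythroid markers miR-451a, miR-144-3p and miR-486a-5p at 2.51, 1.03 and 2.87, and the stromal markers miR-143-3p and miR-145a-5p at 2.82 and 3.50. The endothelial and platelet markers miR-126a-3p and miR-126a-5p were at -0.86 and 0.11. None of these 9 was called (lowest edgeR adjusted p 0.0635), and their part in the levels of miR-155 and of its hairpin row was not tested. Within a condition, and with no test, the 5p level was at 0.25 above the wt mean without LPS and 1.13 above it with LPS (log2), and the 3p level at -0.03 and -1.02. With LPS the 5p arm was at 3.64 and the 3p arm at 4.94 above NS in the Eµ-deficient libraries (log2, SE 1.25 and 1.23, edgeR adjusted p 0.513 and 0.227), which assumes that these lone libraries vary like the other groups. The difference of this response from that of wt was 0.88 (SE 1.38) for the 5p arm and -0.97 (SE 1.29) for the 3p arm (both edgeR adjusted p 1.00), where 0% of 988 features were called and 33 had an unadjusted p under 0.05.

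The ratio of the arms did not pass between genotypes either. Log2(5p/3p) was at 0.66 against wt in 3'RR-deficient cells (SE 0.54, edgeR adjusted p 0.991) and at 1.28 in Eµ-deficient cells (SE 0.66, edgeR adjusted p 0.652). These fits called 0% of the hairpins, with 0 and 8 hairpins at an unadjusted p under 0.05 and 0 calls by limma in both. With the replicate block within culture condition, 3 of 136 hairpins were called between Eµ-deficient and wt cells. The LPS shift was -3.33 (SE 0.82) in wt, -2.51 (SE 0.82) in 3'RR-deficient and -1.30 (SE 1.12) in Eµ-deficient cells, and passed within none of them (edgeR adjusted p 0.379, 0.478 and 0.999). The error of the Eµ-deficient value, 1 library against 1, is borrowed from the other groups. Its difference from wt was 0.82 (SE 1.15) for 3'RR-deficient and 2.03 (SE 1.38) for Eµ-deficient cells (both edgeR adjusted p 1.00), and 0% of hairpins were called, with 0 and 2 at an unadjusted p under 0.05 and 0 by limma.

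**Figure D5:**
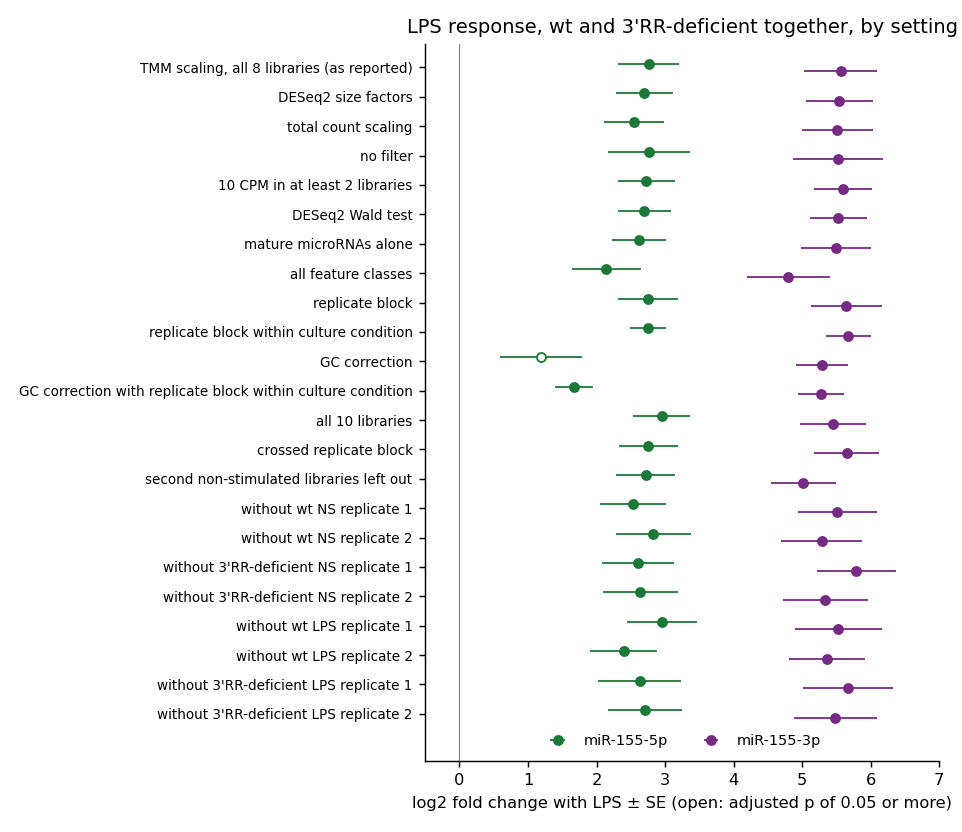
Log2 fold change with LPS over wt and 3'RR-deficient libraries (x axis, ± SE) of both arms under each setting and with each library left out; filled points have an adjusted p under 0.05. The 3p arm lies between 4.80 and 5.79 and is filled throughout, and the 5p arm lies between 1.19 and 2.95 and is open with the GC correction.

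The microRNAs whose levels followed the arms most closely were named by Pearson's r of log2(CPM + 1) over the 10 libraries, among the mature microRNAs with a mean of at least 100 CPM. The arms correlated with each other at r = 0.929. For the 5p arm the others were miR-466b-3p (0.974), miR-148a-5p (0.916), miR-9-5p (0.901) and miR-132-3p (0.891). For the 3p arm they were miR-148a-5p (0.968), miR-9-5p (0.962), miR-466b-3p (0.959), miR-17-5p (0.936) and miR-34a-5p (0.936). For each of these, all LPS libraries were above all NS libraries, so the points behind each r fall into the 2 conditions, and they share their libraries. Those with a RefSeq sequence are shown with seeds in capitals, none of which is the seed of a miR-155 arm.
mmu-miR-148a-5p: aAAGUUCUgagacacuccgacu
mmu-miR-9-5p: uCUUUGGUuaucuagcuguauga
mmu-miR-132-3p: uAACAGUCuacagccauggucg
mmu-miR-17-5p: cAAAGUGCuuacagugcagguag
mmu-miR-34a-5p: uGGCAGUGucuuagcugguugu

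Other microRNAs known to respond to Toll-like receptor or NF-κB signals gave a mixed picture over wt and 3'RR-deficient cells. Of 10 listed and tested, 2 rose with LPS, 1 fell and 7 did not pass, and their median log2 fold change was 1.01 against 0.07 over all 720 features, of which 21.8% were called. MiR-9-5p rose by 3.69 (edgeR adjusted p 0.00346) and miR-212-3p by 1.93 (adjusted p 0.0375). MiR-125b-5p fell by 3.24 on the log2 scale (edgeR adjusted p 0.00261). Let-7e-5p was at -1.57 (edgeR adjusted p 0.0605), miR-21a-5p at 2.22 (adjusted p 0.0723) and miR-187-3p at -2.59 (adjusted p 0.0856). The 5p arm of miR-155 had a larger increase than all of the list but miR-9-5p, and the 3p arm a larger one than all. Over all 720 features the increase ranked 73 for the 5p arm and 15 for the 3p arm.

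In the same comparison, of 12 microRNAs known from B-cell development and activation, 3 rose, 2 fell and 7 did not pass, with a median of 0.57 (all 720 features: 21.8% called, median 0.07). MiR-148a-3p rose by 3.59 (edgeR adjusted p 0.00994), miR-17-5p, of the growth-promoting miR-17 to miR-92a cluster, by 3.14 (adjusted p 0.00967) and miR-34a-5p, a p53 target, by 2.41 (adjusted p 0.00408). MiR-150-5p, a microRNA of resting mature lymphocytes that targets Myb, fell by 2.45 (edgeR adjusted p 0.00392), and miR-181a-5p, which tunes antigen receptor signalling, fell by 2.31 (adjusted p 0.00718). MiR-93-5p was at 0.94 (edgeR adjusted p 0.18), miR-210-3p at 1.18 (adjusted p 0.238) and miR-26a-5p at -0.88 (adjusted p 0.326).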

How the data were processed

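Small RNA libraries (NextFlex kit, 17 PCR cycles, 75 nt reads) were counted per feature by the authors. The deposited table holds raw read counts, not normalized, and the submitters' processing notes name cutadapt 1.2.1, Bowtie2 and mm10. The counting program and the handling of reads matching several places are not given in the sources used here. Features of the microRNA class were fitted with edgeR 4.0.16 in R 4.3.3 (TMM scaling, filterByExpr, two-sided quasi-likelihood test, Benjamini-Hochberg adjustment over all features tested, threshold 0.05). The 8 wt and 3'RR-deficient libraries were fitted together, and all 10 for Eµ-deficient cells. In the fit of arms, each hairpin had a 5p and a 3p count per library and the library was a term. Changes are log2 fold changes. Alternatives used DESeq2 1.42.0, limma 3.58.1, other scalings and filters, replicate blocks, removal of a GC trend (loess, span 0.75) and leaving out each library. The GC trend took the place of the TMM factors and was fitted over the features with a RefSeq sequence alone. The fold of the hairpin was predicted with ViennaRNA 2.7.2. Wilson 95% intervals of shares cover only the error of counting, because amplified reads that carry no molecular identifier need not stem from separate molecules. The fits were also run on simulated data with noise independent between libraries. Such data lack the shared deviation of the second NS libraries, so they cannot show how the fits deal with it.

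Named were both arms, the hairpin row, the 5 microRNAs most like each arm, the called members and up to 3 others of the lists, and the called hairpins or the 3 with the smallest p. Members, lists and this rule were chosen with earlier results of these data known. Replicate numbers come from the sample titles, and no source says that a number marks a shared batch.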

Additional observations from a re-analysis of the deposited data

How the results depend on the processing

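Of 482 values under alternatives, 417 kept their direction and side of the threshold; 0 LPS responses changed sign, and the 35 that did were differences between genotypes, none of them called. DESeq2's Wald test brought the 5p arm past the threshold within wt (2.62) and 3'RR-deficient cells (2.78), and all feature classes together ended the 3p calls there (5.28 and 4.31). The replicate block within culture condition gave 2.72 and 2.79 for the 5p arm, and with the GC correction 1.70 and 1.63, all called. The GC correction alone gave 1.01 and 1.36, not called, and ended the 5p call over both genotypes (1.19). It also cut the features tested from 720 to 497, and the parts of the 2 changes were not separated. The plain replicate block gave 2.76 and 5.64 for the arms over both genotypes and -2.60 for the arm ratio, and changed no call. Same-numbered libraries deviated together between NS groups (r = 0.666) and hardly between LPS groups (0.111), and NS and LPS groups of 3'RR-deficient cells in opposite ways (-0.208). A crossed replicate block, chosen after seeing the data, gave 2.73 and 2.78 for the 5p arm, both called. Leaving out the second NS libraries together, total-count levels and the tests of a difference in arm shift between genotypes or in the Eµ-deficient response were also chosen after seeing the data. The cause of these changes was not tested.

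With each library left out, the 5p response lay between 1.93 and 3.22 in wt and from 2.51 to 2.92 without the 3'RR, and it was called without 3'RR-deficient NS replicate 1 (wt) or wt NS replicate 1 (3'RR-deficient). The 3p response lay between 5.55 and 6.20 in wt and from 4.56 to 5.73 without the 3'RR. Log2(5p/3p) against wt lay between 0.35 and 1.00 in 3'RR-deficient and between 0.45 and 2.07 in Eµ-deficient cells. The difference of the LPS shift from wt lay between 0.22 and 1.51 in 3'RR-deficient cells. In Eµ-deficient cells it lay between 1.42 and 2.71, without each wt or 3'RR-deficient library. The arm ratio shift lay between -2.92 and -2.29 and, in wt and 3'RR-deficient libraries alone, between -3.23 and -2.59. Its difference of medians was -2.95 and that of the means in 8 libraries -2.96, both with an exact permutation p of 0.0556, and left-out libraries gave -2.98 to -2.31 (p 0.0556 without Eµ-deficient NS).

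Between 3'RR-deficient and wt cells without LPS, the 5p arm changed sign with DESeq2 size factors (-0.11), total count scaling (-0.068), a filter of 10 CPM in 2 libraries (-0.063), DESeq2's test (-0.11), mature microRNAs alone (-0.061), the GC correction (-0.17), the compared libraries alone (-0.015) and all 10 libraries (-0.044), and the 3p arm with all feature classes (0.053). With LPS the 5p arm changed sign with total count scaling (-0.024). Over both conditions it did with DESeq2 size factors (-0.032), total counts (-0.046), the 10 CPM filter (-0.00061), DESeq2's test (-0.032), mature microRNAs (-0.014), the GC correction (-2.1e-05) and all 10 libraries (-0.021). The difference of the LPS responses did so for the 5p arm with all feature classes (-0.021) and the GC correction with block (-0.064). With libraries left out these ranged from -0.33 to 0.26 (5p) and -0.77 to 0.50 (3p) without LPS, from -0.36 to 0.73 (5p) with LPS, from -0.089 to 0.26 (5p) over both and from -0.45 to 0.77 (5p) for the responses, and the 3p arm of Eµ-deficient against wt from -0.88 to 0.013. The 3p difference of the LPS responses kept its sign and lay between -1.36 and -0.10.

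The numbers of features called moved more than 1.5-fold: from 5 in wt and 7 in 3'RR-deficient cells to between 0 (all feature classes, or without wt LPS replicate 1 or the second NS library of the genotype) and 182 or 183 (the block within condition), from 157 to between 71 (without wt LPS replicate 2) and 336 over both, from 186 to between 107 and 374 with all genotypes, from 16 to between 1 and 156 for Eµ-deficient cells, from 0 to up to 1 (without LPS) and 8 (with LPS) and from 1 to between 0 and 8 (over both) for 3'RR-deficient against wt cells, from 2 hairpins to between 0 and 61 for the arms, and from 1 to between 0 and 50 in wt and 3'RR-deficient cells. The number of hairpins called between Eµ-deficient and wt cells moved from 0 to up to 3. DESeq2 size factors moved the median of all features in wt from 0.07 to -0.07. With total count scaling the 5p level was 40920.0 CPM in 3'RR-deficient LPS cells and 9597 and 123400.0 CPM in Eµ-deficient cells, and the 3p level 300.7 CPM in Eµ-deficient LPS cells. The 3p arm of NS cells, with 14 to 98 reads, limits the precision of the ratio.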
